A study of Mus musculus with 20 samples.

Results

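The genes of MHC class I antigen presentation described here are 10 of the 24062 genes in the table of normalized read counts: the heavy chains H2-K1, H2-D1, H2-Q4, H2-Q6, H2-Q7, H2-T22, H2-T23 and H2-M3, the light chain B2m and the peptide transporter subunit Tap1, chosen by their symbols. RNA came from microglia, the resident macrophages of the brain, of 20 male mice on the B6D2F1/J background, a cross of C57BL/6J and DBA/2J. The transgenic mice, labelled HEM, carried an X-linked transgene for human wild-type α-synuclein (mThy1-α-synuclein) under the murine Thy-1 promoter, which is active in neurons, and their controls were wild-type mice of the same age. The 7-month groups held 6 transgenic and 4 wild-type mice, the 10-month groups 5 of either genotype. A sample was the microglia of 1 brain, and mice were not pooled. The labels name IBA1 beads for the selection of microglia, while the study's methods name CD11b beads. Both of these proteins are also made by other macrophages and monocytes, and CD11b also by neutrophils.

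Class I molecules display peptides from inside a cell to CD8 T cells and to receptors of natural killer cells. A heavy chain pairs with β2-microglobulin (B2m) in the endoplasmic reticulum, where the transporter of Tap1 and Tap2 delivers peptides cut by the proteasome, and tapasin, calreticulin and ERp57 (Pdia3) hold the empty molecule until a peptide binds. H2-K1 and H2-D1 encode the classical heavy chains, H2-Q4, H2-Q6, H2-Q7, H2-T22, H2-T23 (Qa-1) and H2-M3 encode nonclassical ones, and interferons raise the transcription of most of these genes. Microglia in a healthy brain carry little class I protein and increase it under interferon.

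Between 33404096 and 77806399 reads per mouse were counted on genes, and 8 of 8 microglial marker genes, P2ry12 and Tmem119 among them, had reads in every mouse. Markers of other cells, blood-derived cells among them, were also present. The summed normalized count of 5 neutrophil markers fell into separate ranges at 7 months: it was 37857 to 63869 in transgenic replicates 1 to 3 and 65277 in wild-type replicate 4, but 210621 to 383198 in the other 3 transgenic mice and 215929 to 246987 in the other 3 wild-type mice. Results at 7 months are therefore also given for those last 3 and 3 mice, a choice made after seeing these sums. In the 10-month mice the neutrophil sums were 62335 to 167100 in transgenic and 135218 to 334772 in wild-type mice. Wild-type replicate 2 at 10 months stood apart in the class I genes themselves. The differences of these genes that include this mouse are also given without it.

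All 10 genes lie on chromosome 17, except B2m on chromosome 2 (chr2:122147686-122153083, plus strand). In GRCm38 coordinates H2-K1 is at chr17:33996017-34000347 (minus strand), Tap1 at chr17:34187553-34197225, H2-D1 at chr17:35262730-35267499, H2-Q4 at chr17:35379617-35385290, H2-Q6 at chr17:35424850-35430055, H2-Q7 at chr17:35439155-35443773, H2-T23 at chr17:36029773-36032855 (minus strand), H2-T22 at chr17:36037128-36042747 (minus strand) and H2-M3 at chr17:37270220-37274484. Each is annotated as protein-coding, and values are for whole genes.

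Levels of the 7 genes with reads in every mouse spanned a wide range. Per kilobase of exon, B2m had a median of 210940 normalized counts over the 20 mice (171860 to 262530), far above any heavy chain. H2-D1 followed with a median of 7345 (5251 to 13619), then H2-K1 with 5700 (3909 to 11029), H2-T23 with 3762 (3213 to 5301), H2-Q4 with 1646 (1225 to 3393) and H2-M3 with 949 (743 to 1751). Tap1 was lowest at 471 (357 to 764). This order of levels held within each of the 20 mice, although the ranges over mice of all neighbours except B2m and H2-D1 overlapped. These are levels on 1 linear scale within an age. The ages were normalized separately, so each range spans both normalizations.

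**Figure D1:**
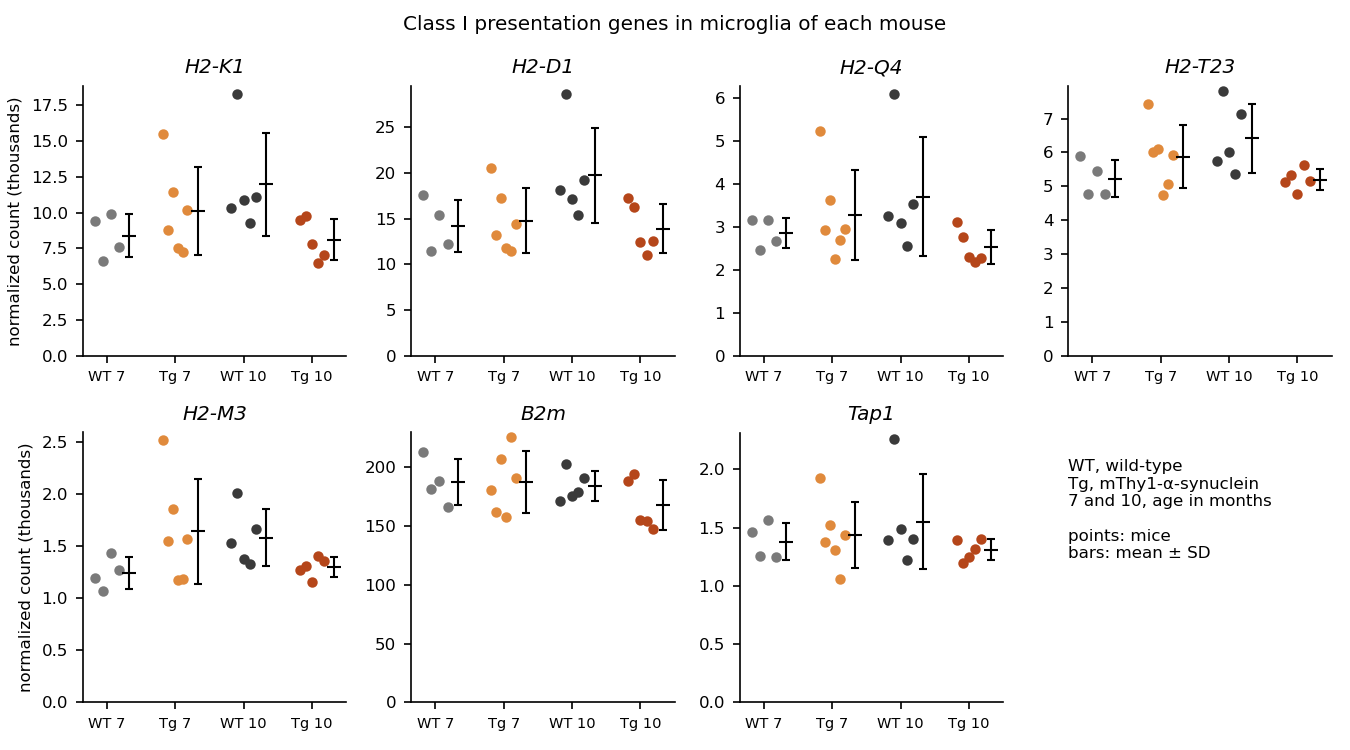
Normalized counts (linear axes from 0, scaled as labelled) of the 7 tested class I presentation genes in each mouse, by genotype and age, with the mean ± SD of each group beside the points. In wild-type mice at 10 months replicate 2 lies above the other 4 mice in all 7 panels, and the genotypes overlap in every gene at both ages.

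The other 3 members could not be compared. H2-Q6 and H2-Q7 were listed at 0 in all 20 mice, and H2-T22 had no read in 14 mice and between 1 and 6 reads in the other 6. The near copies of these genes behaved differently: H2-T10, the closest relative of H2-T22, had 573 to 1186 normalized counts, whereas H2-Q8 and H2-Q9 were also listed at 0 in all mice. Class I heavy chains share long stretches of sequence. Of all 100-base words in the coding transcripts of H2-Q7, 17.2% also occurred in a transcript of another gene, as did 10.8% of those of H2-Q6 and 12.4% of those of H2-T22, the last most often in H2-T10. For the heavy chains that were measured this share was 0% in H2-K1 and H2-M3, 2.66% in H2-Q4, 4.09% in H2-D1 and 7.28% in H2-T23. How the authors treated reads that map to several genes is not stated, so counts of these copies are uncertain. The reads were mapped to mm10, which represents C57BL/6J, and the class I and class II haplotypes of DBA/2J differ from it. H2-Ea-ps, the class II α gene that is silent on the C57BL/6J haplotype, had 8152 to 23882 normalized counts in every mouse. The part of haplotype in these counts was not tested.

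Promoter sequence was read for all 10 genes, since the tested heavy chains and Tap1 varied together between mice (250 bases before to 50 after the RefSeq start of transcription, GRCm38.p6; H2-K1 has a second start a few bases away). The first set shows H2-K1, H2-D1 and H2-Q4, the heavy chains that varied most closely together, the next pair is H2-Q6 and H2-Q7, which were listed at 0, and the last is B2m, which varied least like the others. Capitals mark 3 motifs, the κB core letters GGATTCC, and a pair of forms of the interferon response element, TTTCNNTTC and GAAANNGAA (TTCNNTTTC on the other strand), each searched on both strands:
H2-K1, chr17:34000298-34000597, minus strand: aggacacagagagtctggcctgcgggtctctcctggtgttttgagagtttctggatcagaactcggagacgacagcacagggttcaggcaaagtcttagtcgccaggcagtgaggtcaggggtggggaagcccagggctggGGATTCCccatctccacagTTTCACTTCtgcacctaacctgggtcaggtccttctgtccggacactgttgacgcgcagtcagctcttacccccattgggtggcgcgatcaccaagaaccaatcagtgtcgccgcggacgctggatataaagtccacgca
H2-D1, chr17:35262844-35263143, plus strand: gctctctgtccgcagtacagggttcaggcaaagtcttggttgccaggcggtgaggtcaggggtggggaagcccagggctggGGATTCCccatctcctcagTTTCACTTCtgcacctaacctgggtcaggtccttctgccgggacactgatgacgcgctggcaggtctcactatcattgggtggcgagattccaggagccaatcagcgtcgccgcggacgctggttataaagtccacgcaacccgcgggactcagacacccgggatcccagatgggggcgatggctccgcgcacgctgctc
H2-Q4, chr17:35379367-35379666, plus strand: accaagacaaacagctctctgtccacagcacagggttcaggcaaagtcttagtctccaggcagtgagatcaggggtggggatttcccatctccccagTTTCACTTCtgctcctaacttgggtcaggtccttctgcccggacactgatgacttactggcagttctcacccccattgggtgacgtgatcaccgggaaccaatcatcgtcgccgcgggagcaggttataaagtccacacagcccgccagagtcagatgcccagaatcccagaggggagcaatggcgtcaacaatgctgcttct
H2-Q6, chr17:35424600-35424899, plus strand: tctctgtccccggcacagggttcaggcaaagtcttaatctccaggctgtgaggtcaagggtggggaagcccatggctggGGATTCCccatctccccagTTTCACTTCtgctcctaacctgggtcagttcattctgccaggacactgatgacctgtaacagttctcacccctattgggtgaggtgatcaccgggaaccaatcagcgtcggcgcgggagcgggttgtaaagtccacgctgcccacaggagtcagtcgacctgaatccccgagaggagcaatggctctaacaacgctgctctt
H2-Q7, chr17:35438905-35439204, plus strand: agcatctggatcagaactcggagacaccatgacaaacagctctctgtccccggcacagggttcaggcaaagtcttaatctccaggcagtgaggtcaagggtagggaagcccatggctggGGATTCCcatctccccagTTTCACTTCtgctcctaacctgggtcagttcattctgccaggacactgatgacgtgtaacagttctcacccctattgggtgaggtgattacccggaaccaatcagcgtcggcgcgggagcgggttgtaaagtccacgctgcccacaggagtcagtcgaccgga
B2m, chr2:122147437-122147736, plus strand: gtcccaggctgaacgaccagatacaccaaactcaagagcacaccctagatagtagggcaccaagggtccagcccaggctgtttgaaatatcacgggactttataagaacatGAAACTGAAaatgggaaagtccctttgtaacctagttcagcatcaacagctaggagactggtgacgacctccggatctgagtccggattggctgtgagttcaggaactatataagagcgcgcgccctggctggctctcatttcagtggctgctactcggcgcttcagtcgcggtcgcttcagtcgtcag

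TTTCNNTTC was present in 6 of the 10 promoters (H2-K1, H2-D1, H2-Q4, H2-Q6, H2-Q7 and H2-M3), in each case as TTTCACTTC, beside 7.52% of all 32851 RefSeq promoters of this length. The other form, GAAANNGAA, was present in B2m, H2-T22 and H2-T23, beside 8.56% of all promoters, so that of the 10 genes only Tap1 matched neither form in this window. GGATTCC was present in H2-K1, H2-D1, H2-Q6 and H2-Q7, beside 3.79% of all promoters. TGATGAC, the core of the site bound by CREB and ATF proteins next to the RFX site of class I promoters, was present in 6 of the 10 and in 3.23% of all promoters. CCAAT, the letters bound by NF-Y, was in all 10 and in 37.4% of all promoters. The motifs were picked with the promoters in view and did not overlap each other. The heavy chain promoters shown above are alike around these motifs, so their matches are not independent of each other. H2-Q6 and H2-Q7 held the same motifs as H2-D1 although they were listed at 0, and B2m, the most abundant member, held CCAAT and GAAANNGAA but none of the other 3 motifs. A match is a run of letters and not a measured binding site.

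At 10 months all 7 tested class I genes had a fitted difference below 0, lower in transgenic than in wild-type mice, where 50.5% of all genes tested lay below 0. None reached an adjusted p under 0.05, the cutoff that 7.67% of 13627 genes passed (limma on log2(value + 1), Benjamini-Hochberg over all genes), and 5 of the 7 were lower at an unadjusted p under 0.05, beside 12% of all genes. The median difference of the 7 was -0.29 on the log2 scale, beside -0.0026 for all genes. Most of the 7 genes varied together between mice, as described below. They are not separate observations in these counts or in those that follow.

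H2-K1 gave the largest difference of the 7 tested genes, followed by H2-Q4 and H2-D1. H2-K1 had 9473, 9762, 7815, 6469 and 7074 normalized counts in transgenic mice and 10326, 18253, 10855, 9295 and 11115 in wild-type mice. Only wild-type replicate 4 lay below the highest transgenic mouse, and wild-type replicate 2 lay far above all others. The log2 difference was -0.54 ± 0.18 (SE, adjusted p = 0.103 by limma, 95% interval -0.93 to -0.14). H2-D1 had 17225, 16295, 12445, 11039 and 12561 in transgenic and 18137, 28627, 17194, 15450 and 19282 in wild-type mice. Here the 2 highest transgenic mice lay within the wild-type range, and the difference was -0.49 ± 0.17 (SE, adjusted p = 0.111 by limma).

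Of the nonclassical heavy chains, H2-Q4 had 3119, 2768, 2295, 2196 and 2275 normalized counts in transgenic mice and 3267, 6084, 3090, 2559 and 3539 in wild-type mice, a difference of -0.50 ± 0.21 (SE, adjusted p = 0.181 by limma). Its wild-type replicate 2 was higher than any other mouse. H2-T23, whose product Qa-1 is read by natural killer cell receptors, had 5125, 5329, 4760, 5632 and 5165 in transgenic and 5761, 7803, 6019, 5365 and 7145 in wild-type mice. The transgenic mice lay close together and only the highest of them overlapped the wild-type range. The difference of -0.29 ± 0.095 (SE) had the smallest adjusted p of the 7 genes, 0.0762 by limma. H2-M3, which presents formylated bacterial and mitochondrial peptides, had 1270, 1312, 1155, 1406 and 1358 in transgenic and 1533, 2014, 1373, 1333 and 1661 in wild-type mice, a difference of -0.27 ± 0.11 (SE, adjusted p = 0.135 by limma).

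The light chain and the transporter differed least. B2m had 188296, 194087, 155588, 154431 and 147800 normalized counts in transgenic and 171838, 202912, 175864, 178970 and 190621 in wild-type mice, with transgenic replicates 1 and 2 inside the wild-type range, and a difference of -0.14 ± 0.085 (SE, adjusted p = 0.356 by limma). Tap1 had 1394, 1198, 1245, 1317 and 1404 in transgenic and 1390, 2256, 1489, 1218 and 1398 in wild-type mice. Its groups overlapped widely apart from wild-type replicate 2, and the difference was -0.21 ± 0.13 (SE, adjusted p = 0.371 by limma). The genotypes overlapped in all 7 genes, where 7.27% of all genes did not overlap and 3.49% were lower in transgenic mice without overlap.

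Without wild-type replicate 2 the 7 differences stayed below 0 but came closer to it, at -0.37 for H2-K1, -0.35 for H2-D1, -0.30 for H2-Q4, -0.22 for H2-T23, -0.18 for H2-M3, -0.10 for B2m and -0.066 for Tap1, with adjusted p between 0.0924 and 0.713 by limma. With DESeq2 on the recovered reads, the tool of the study, H2-D1 (adjusted p = 0.0161) and H2-T23 (adjusted p = 0.0345) passed the cutoff, and with edgeR none of the 7 did.

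**Figure D2:**
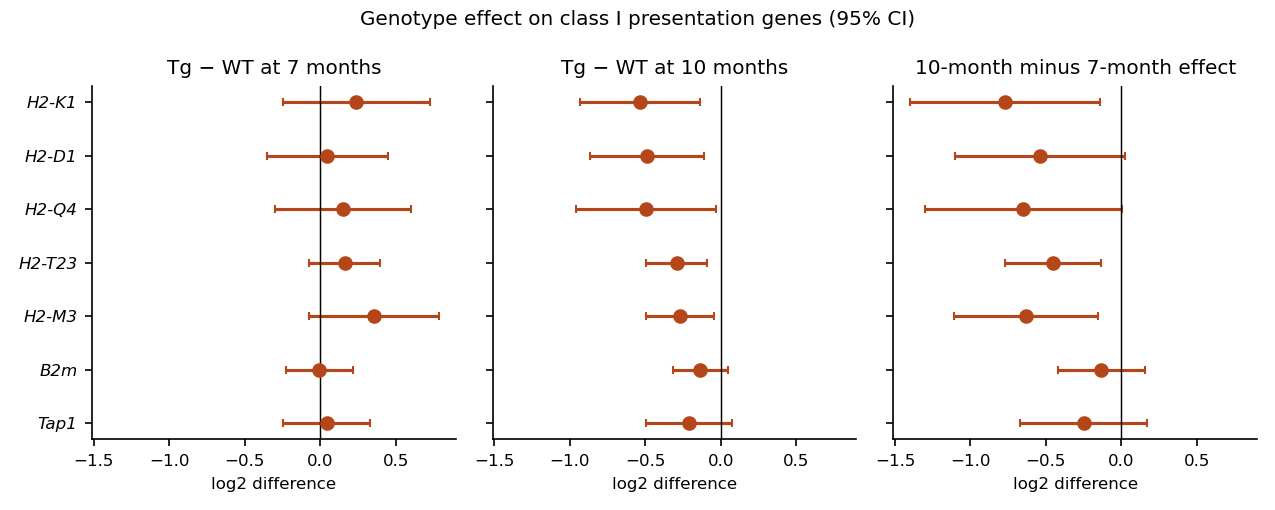
Log2 difference between mThy1-α-synuclein and wild-type mice with its 95% confidence interval for each of the 7 tested genes, at 7 months, at 10 months, and as the 10-month minus the 7-month effect. All 7 points lie below 0 at 10 months, 6 of 7 above 0 at 7 months.

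Marker genes of microglia and of other cells also differed at 10 months. Of the 8 microglial markers 7 lay above 0 and 3 were called higher in transgenic mice (3.88% of all genes). All 8 astrocyte markers lay above 0, with 1 called higher. Over the whole marker lists, the summed normalized count was lower in transgenic mice without overlap for 7 border macrophage markers (18879 to 24280 against 25613 to 35529), for 6 dendritic cell markers (1319 to 1714 against 2234 to 3112) and for 11 T and natural killer cell markers (625.5 to 1007 against 1397 to 3176). The sums of 5 monocyte markers were 9496 to 19380 in transgenic and 19006 to 40405 in wild-type mice. Chil3 weighed most in these sums, with a median of 11644 over the 20 mice beside 4840 for Ccr2. All 5 monocyte markers lay below 0 and 2 were called lower (3.79% of all genes). The dendritic cell sum was mostly Cd209a, the 1 gene of its list called lower, while Clec9a of the same list differed by 0.67 (adjusted p = 0.120 by limma). No marker of these lists was at 0 in all mice of a group. These cells express class I genes too, and their part in the class I values was not tested. In RNA from a bulk cell preparation, fewer cells of a type and less RNA per cell cannot be told apart.

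At 7 months the direction was different and no class I gene passed the cutoff, which 4.93% of 13887 genes passed. None had an unadjusted p under 0.05 by limma, beside 21.3% of all genes, and DESeq2 and edgeR called none either. Of the 7 genes, 6 had a fitted difference above 0 (50.2% of all genes), with a median of 0.15, and the genotypes overlapped in all 7, where 7.53% of all genes did not overlap.

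H2-K1 ranged from 7260 over a median of 9496 to 15496 normalized counts in the 6 transgenic mice, and was 9393, 6655, 9919 and 7632 in the 4 wild-type mice. The transgenic range enclosed nearly all of the wild-type values, and the log2 difference was 0.24 ± 0.22 (SE, adjusted p = 0.572 by limma). H2-D1 ranged from 11421 over 13823 to 20577 in transgenic mice and was 17608, 11512, 15430 and 12264 in wild-type mice, a difference of 0.047 ± 0.18 (SE, adjusted p = 0.912 by limma). For both genes the highest mouse was transgenic replicate 1.

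H2-Q4 ranged from 2259 over 2952 to 5233 in transgenic mice and was 3152, 2468, 3160 and 2685 in wild-type mice, a difference of 0.15 ± 0.20 (SE). H2-T23 ranged from 4730 over 5972 to 7414, beside 5891, 4780, 5444 and 4772 in wild-type mice, a difference of 0.16 ± 0.11 (SE). H2-M3 gave the largest difference, 0.36 ± 0.20 (SE, adjusted p = 0.321 by limma), from a range of 1171 over 1560 to 2518 in transgenic mice beside 1195, 1068, 1436 and 1270. The transgenic mice were more widely spread than the wild-type mice in all 3 of these heavy chains.

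B2m ranged from 157461 over 185918 to 225776 in transgenic mice and was 212980, 181795, 188567 and 165955 in wild-type mice, so that the group means, 187417 ± 26379 (SD, n = 6) and 187324 ± 19553 (SD, n = 4), nearly coincided. Its difference of -0.0053 had a 95% interval of -0.23 to 0.22. Tap1 ranged from 1055 over 1406 to 1922, beside 1461, 1254, 1562 and 1244 in wild-type mice, with a difference of 0.042 ± 0.13 (SE).

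In the 3 transgenic and 3 wild-type mice with the higher neutrophil sums, 6 of the 7 differences at 7 months lay below 0. They were -0.049 for H2-K1, -0.23 for H2-D1, -0.15 for H2-Q4, -0.036 for H2-T23, -0.035 for B2m and -0.18 for Tap1, while H2-M3 was at 0.084, with adjusted p of 0.531 or more by limma. Without transgenic replicate 1 alone, 5 of the 7 lay above 0 with a median of 0.0059, H2-K1 at 0.10, H2-Q4 at 0.0059, H2-D1 at -0.054 and Tap1 at -0.047. The direction at 7 months thus rested on the mice included. Marker sums of T and natural killer cells (569 to 1341 against 1780 to 3364), of 7 endothelial markers (2741 to 4706 against 5130 to 6025), of 9 neuronal markers (434 to 1657 against 2607 to 5593) and of 8 oligodendrocyte markers (4644 to 6830 against 9299 to 14747) were lower in transgenic mice at this age, and their part in these values was not tested.

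**Figure D3:**
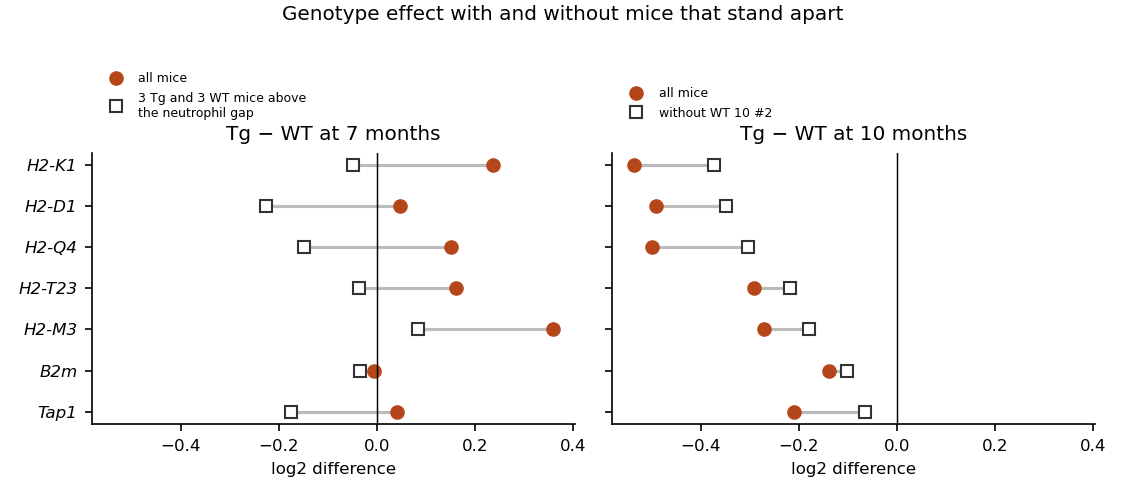
Log2 difference between mThy1-α-synuclein (Tg) and wild-type (WT) mice for each gene in all mice (filled circles) and in part of them (open squares), for 7 months the 3 and 3 mice with the higher neutrophil marker sums and for 10 months all mice except wild-type replicate 2. At 7 months 5 genes cross 0 between the symbols, whereas at 10 months all 14 points lie below 0.

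The change of the genotype effect from 7 to 10 months asks whether the groups diverged with age. It lay below 0 in all 7 genes (50.4% of all genes), and none passed the cutoff, which 6.6% of 14030 genes passed. H2-T23 (-0.45 ± 0.15 SE, adjusted p = 0.0768), H2-M3 (-0.63 ± 0.23 SE, adjusted p = 0.104) and H2-K1 (-0.77 ± 0.30 SE, adjusted p = 0.134, all by limma) had an unadjusted p under 0.05, beside 10.7% of all genes below 0 at that p. A difference above 0 at 7 months and below 0 at 10 months was seen in 6 of the 7, beside 24.9% of the 13484 genes tested at both ages. The values were -0.65 for H2-Q4, -0.54 for H2-D1, -0.25 for Tap1 and -0.13 for B2m. With DESeq2, H2-T23 (adjusted p = 0.0415) and H2-M3 (adjusted p = 0.0360) passed, and with edgeR none did. When the 7-month mice were restricted to the 3 and 3 with higher neutrophil sums, the 7 values ranged from -0.49 to -0.034, with adjusted p of 0.317 or more by limma. Without wild-type replicate 2 at 10 months they ranged from -0.61 to -0.097, with adjusted p of 0.141 or more by limma.

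Between the ages, class I levels were compared after size factors were recomputed over all 20 mice. In wild-type mice all 7 genes had a fitted difference above 0 at 10 against 7 months (50.7% of all genes), and H2-T23 rose past the cutoff, as did 4.72% of all genes. On this common scale its mean was 5040 ± 527 (SD, n = 4) normalized counts at 7 months and 6648 ± 1062 (SD, n = 5) at 10 months, a log2 difference of 0.39 ± 0.11 (SE, adjusted p = 0.0307 by limma). H2-K1 (0.59 ± 0.22 SE), H2-D1 (0.56 ± 0.20 SE) and H2-M3 (0.44 ± 0.17 SE) did not pass, with adjusted p of 0.1, 0.0773 and 0.0999 by limma. Without wild-type replicate 2 at 10 months the 7 differences ranged from 0.042 to 0.42, with adjusted p of 0.0853 or more by limma. In transgenic mice no class I gene passed the cutoff by limma, edgeR or DESeq2, beside 0.941% of all genes that did by limma. The smallest unadjusted p of the 7 genes by limma was 0.25, for H2-M3. The differences lay between -0.23 for H2-Q4 and 0.029 for H2-D1. For H2-K1 the common-scale means in transgenic mice were 9748 ± 2943 (SD, n = 6) and 8418 ± 1494 (SD, n = 5). Age and the processing of each age together cannot be told apart, and the call of H2-T23 was lost without any 1 of 4 wild-type mice (7-month replicates 2 and 4, 10-month replicates 2 and 5), with adjusted p up to 0.0914 by limma.

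The class I genes varied together from mouse to mouse within groups. Over 20 mice, after each group mean was subtracted from log2 values, Pearson's r between pairs of the 7 genes had a median of 0.803 over 21 pairs (0.0678 to 0.967). H2-K1 with H2-D1 was closest at 0.967, and H2-Q4 followed with 0.946 to H2-K1 and 0.937 to H2-D1. B2m stood apart, with r from 0.0678 to Tap1 up to 0.514 to H2-D1. These correlations are descriptions: the mice of an age share a normalization, and a few mice carry much of the spread.

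Wild-type replicate 2 at 10 months was the highest of its group in 7 of 7 genes, by a median of 0.66 on the log2 scale above the group's median. Its ratio to the mean of the other 4 mice was 1.95 for H2-Q4, 1.76 for H2-K1, 1.64 for Tap1, 1.63 for H2-D1, 1.37 for H2-M3, 1.28 for H2-T23 and 1.13 for B2m. Transgenic replicate 1 at 7 months was the highest of its group in 6 of 7 genes, by a median of 0.58, with B2m as the exception. Its neutrophil sum of 63869 was among the low values of that age, while wild-type replicate 2 at 10 months had 264903, within the range of its group.

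**Figure D4:**
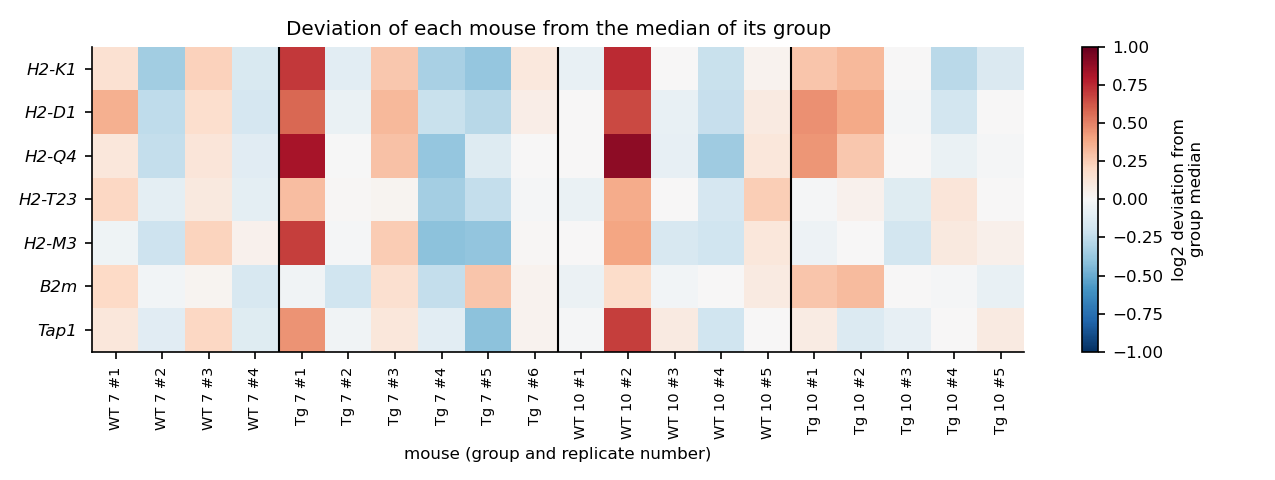
Log2 deviation of each mouse (columns, by group and replicate number) from the median of its group for the 7 tested genes (rows), red above and blue below the median. WT 10 replicate 2 and Tg 7 replicate 1 are red in nearly the whole column, with median deviations of 0.66 and 0.58, and B2m departs most from the other rows.

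Outside the members, the genes most like their mean profile over the 20 mice were C920025E04Rik (r = 0.893), H2-Q1 (0.883), H2-T10 (0.873), H2-Q2 (0.870) and H2-K2 (0.861). Of these 5, 4 carry H2 symbols, and reads could be shared among copies: 12.4% of the 100-base words of H2-Q1 and 11.8% of those of H2-T10 occurred in another gene. Among the members H2-Q4 was closest to the profile (0.975) and B2m farthest (0.475). Each member is itself part of that mean, so these values cannot be set beside those of the outside genes.

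Around the members on chromosome 17, between H2-K1 and H2-M3, lie 293 other annotated genes, of which 110 were tested at 10 months. Of these, 5 were lower and 1 higher in transgenic mice past the cutoff (5.45% called, beside 7.67% of all genes), and 75 of 110 had a difference below 0, with a median of -0.10. At 7 months 2 of 112 were lower and 1 higher (2.68%, beside 4.93% of all genes). Among those with the smallest adjusted p at 10 months were Lst1 (-0.55 ± 0.12 SE, adjusted p = 0.0128 by limma), the complement gene C2 (-1.03 ± 0.25 SE, adjusted p = 0.0256) and Atf6b (-0.28 ± 0.076 SE, adjusted p = 0.0401).

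The peptide loading genes, partners of the members in the endoplasmic reticulum, were in part lower in transgenic than in wild-type mice at 10 months. All 7 genes of the list had a difference below 0, and 3 were lower past the cutoff (3.79% of all genes), with a median of -0.18. Calr, the chaperone calreticulin, had 60362, 81806, 67781, 69565 and 67754 normalized counts in transgenic and 103956, 91457, 91224, 95377 and 96596 in wild-type mice. The highest transgenic mouse lay below the lowest wild-type mouse, and Calr was lower by 0.47 ± 0.077 on the log2 scale (SE, adjusted p = 0.00393 by limma). Pdia3, the disulfide isomerase ERp57, had 63373, 76603, 64174, 67372 and 69929 in transgenic and 94794, 85301, 82141, 91674 and 90984 in wild-type mice, again without overlap. It was lower in transgenic mice by 0.38 ± 0.069 (SE, adjusted p = 0.00603 by limma). Tapbpl, the peptide editor TAPBPR, was lower by 0.34 ± 0.076 (SE, adjusted p = 0.0161 by limma), at 1248 ± 91.6 in transgenic and 1585 ± 104 in wild-type mice (SD, n = 5 each). These 3 calls held in all 16 alternatives run. Calreticulin and ERp57 fold many glycoproteins besides class I.

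Of the other loading genes at 10 months, Tap2, the partner of Tap1, differed by -0.18 ± 0.090 (SE, adjusted p = 0.250), Tapbp, tapasin itself, by -0.069 ± 0.063 (SE, adjusted p = 0.556), calnexin (Canx) by -0.080 and the trimming peptidase Erap1 by -0.026. At 7 months all 7 genes lay above 0 (median 0.079) and none passed. Between the ages on the common scale, all 7 were above 0 in wild-type mice at 10 against 7 months (median 0.22). Of these, 2 were called higher (4.72% of all genes). In transgenic mice 5 of the 7 lay below 0 (median -0.030) and none was called. Age and processing cannot be told apart here either. The 10-month minus 7-month effect was -0.61 ± 0.11 for Calr (SE, adjusted p = 0.00199 by limma) and -0.58 ± 0.10 for Pdia3 (SE, adjusted p = 0.00211 by limma), and for both it passed the cutoff (2.73% of all genes called lower) in all 27 alternatives, the 3 and 3 mice with higher neutrophil sums included.

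The 14 peptide generation genes gave no call at either age. At 10 months 12 of 14 lay below 0 with a median of -0.14, and at 7 months 8 of 14 did with a median of -0.025. The immunoproteasome subunit Psmb8 differed by -0.22 ± 0.094 (SE, adjusted p = 0.173) and Psmb9 by -0.25 ± 0.15 (SE, adjusted p = 0.320) at 10 months, and by -0.22 and -0.26 at 7 months, all by limma.

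**Figure D5:**
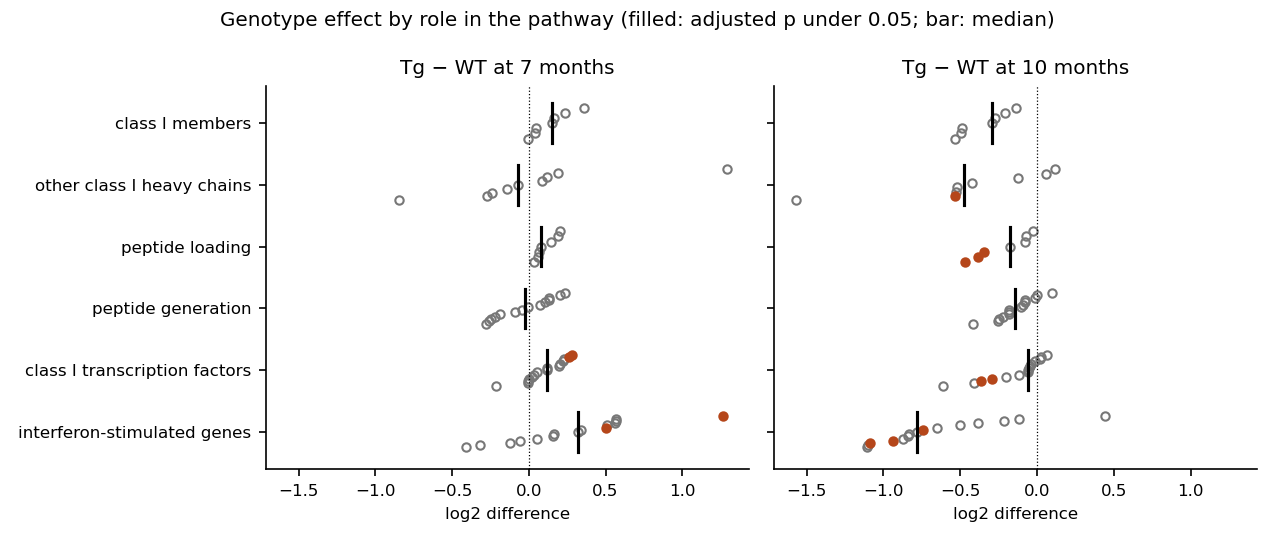
Log2 difference between mThy1-α-synuclein (Tg) and wild-type (WT) mice for the tested genes of 6 lists at 7 and 10 months, with the list median as a bar and genes with an adjusted p under 0.05 filled. At 10 months 3 of 7 peptide loading genes and 3 of 15 interferon-stimulated genes are filled below 0, and none of the 7 members is.

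Among 15 transcription factors that act on class I promoters, 2 were lower at 10 months. Nfya, the subunit of NF-Y that contacts CCAAT, had 8562, 7958, 8161, 7574 and 8489 normalized counts in transgenic and 10666, 10088, 9745, 10397 and 9035 in wild-type mice, without overlap. It was lower in transgenic mice by 0.29 ± 0.064 (SE, adjusted p = 0.0155 by limma). Irf1, an interferon-induced activator, was lower by 0.36 ± 0.10 (SE, adjusted p = 0.0434 by limma), a call kept in 2 of 10 fits that left out 1 mouse. Nlrc5, the class I transactivator, differed by -0.61 ± 0.31 (SE, adjusted p = 0.268 by limma), from 499 ± 211 in transgenic and 742 ± 276 in wild-type mice (SD, n = 5 each). At 7 months Creb1 (0.28 ± 0.077 SE, adjusted p = 0.0476) and Nfya (0.26 ± 0.073 SE, adjusted p = 0.0499, both by limma) were higher, as were 2.23% of all genes, and each call held in 5 of 17 alternatives, while Nlrc5 and Irf1 differed by 0.23 and 0.024. The 10-month minus 7-month effect was -0.56 ± 0.094 for Nfya (SE, adjusted p = 0.00156 by limma) and -0.48 ± 0.14 for Creb1 (SE, adjusted p = 0.0335 by limma).

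The 15 interferon-stimulated genes outside the class I pathway lay below 0 at 10 months in 14 cases, with a median of -0.78, and 3 passed the cutoff. Ifitm3, a restriction factor for viral entry, was lower by 1.09 ± 0.19 (SE, adjusted p = 0.00937 by limma), at 2696 ± 658 in transgenic and 5679 ± 1088 in wild-type mice. Bst2 (tetherin) was lower by 0.75 ± 0.12 (SE, adjusted p = 0.00422 by limma), at 1251 ± 197 in transgenic and 2100 ± 355 in wild-type mice (SD, n = 5 each). Neither overlapped between the genotypes. At 7 months both also lay below 0. Fits that left out 1 mouse gave -0.58 to -0.30 for Ifitm3 and -0.45 to -0.16 for Bst2 at that age. Neither was called there with all mice. Ifitm3 stayed uncalled in 16 of 17 alternatives and Bst2 in all 17. The ubiquitin-like modifier Isg15 was lower by 0.94 ± 0.27 at 10 months (SE, adjusted p = 0.0488 by limma), a call that held in 5 of 16 alternatives. At 7 months 11 of 15 lay above 0 (median 0.32), and the chemokine Cxcl10 (1.26 ± 0.25 SE, adjusted p = 0.00967) and Ifit3 (0.50 ± 0.11 SE, adjusted p = 0.0143, both by limma) were higher in transgenic mice. Both 7-month calls were lost in the 3 and 3 mice with higher neutrophil sums, where the differences were 0.86 for Cxcl10 and 0.34 for Ifit3, with adjusted p of 0.0505 and 0.192 by limma. Between the ages on the common scale, all 15 were above 0 in wild-type mice at 10 against 7 months (median 0.73). Of these, 7 were called higher (4.72% of all genes). In transgenic mice 12 of the 15 lay below 0 (median -0.32) and none was called. Here too, age cannot be told apart from the processing.

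The remaining class I relatives showed few differences. Of 23 other heavy chain genes of the MHC in the table, 8 were tested at 10 months, and H2-Bl was lower (-0.53 ± 0.14 SE, adjusted p = 0.0405 by limma), a call that held in 8 of 16 alternatives. Of 15 class I-like genes outside the MHC, 8 were tested, and Mr1, which presents vitamin B metabolites, was higher at 10 months, as were 3.88% of all genes (0.38 ± 0.11 SE, adjusted p = 0.0437 by limma), also in 8 of 16 alternatives. Neither list had a call at 7 months. Among 8 tested class I receptors, Pirb (-0.82 ± 0.17 SE, adjusted p = 0.0160) and Pira2 (-0.66 ± 0.19 SE, adjusted p = 0.0476) were lower at 10 months and Klrk1 (-0.86 ± 0.19 SE, adjusted p = 0.0151, all by limma) at 7 months, where 2.7% of all genes were lower, named after their values were seen. Pirb is an inhibitory receptor of myeloid cells and Klrk1 (NKG2D) an activating receptor of natural killer and T cells.

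Class II genes were tested beside these as neighbours in the MHC. H2-Ob, the β chain of the peptide exchange inhibitor H2-O, was higher in transgenic mice at 7 months (0.72 ± 0.14 SE, adjusted p = 0.00844) and at 10 months (0.64 ± 0.12 SE, adjusted p = 0.00765, both by limma). It did not overlap between the genotypes at either age, while the other 10 tested genes of the list gave no call. H2-Ea-ps differed by -0.29 ± 0.15 at 7 months and -0.59 ± 0.22 at 10 months (SE, adjusted p = 0.293 and 0.140 by limma).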

How the data were processed

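RNA-seq of microglia from 20 mice was analysed. Per the labels and the study's methods, the authors trimmed reads with Trim Galore 0.6.7, mapped them to mm10 with HISAT2 2.2.1, counted them with featureCounts and normalized with DESeq2 1.44.0. The counting annotation and the treatment of multi-mapped reads are not given in the sources used here. In the deposited signal values, the authors had scaled the count of each gene by 1 size factor per mouse, obtained separately at each age. They were whole multiples of 1 step per mouse in 100% of low values (tolerance 0.01), and this gave back whole reads. The table and the single files held the same values. No 2 mice of a group agreed within counting noise (chi-square per gene at least 24.7).

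Genes that reached 10 normalized counts in 4 or more mice (7 months) or in 5 or more (10 months) were tested with limma 3.58.1 (trend, robust) on log2(value + 1) in R 4.3.3, with Benjamini-Hochberg adjustment over all genes and a cutoff of 0.05. Fold changes of low genes are understated on this scale. The difference between ages was fitted over 4 group means, and age effects used size factors recomputed over all 20 mice. The step was tested on simulated data. Alternatives were pseudocounts 0.5 and 5, no filter, edgeR 4.0.16 and DESeq2 1.42.0 on the recovered reads, a replicate block, leaving out each mouse, and, added after seeing the data, the 7-month mice with neutrophil sums above 100000. The labels give each sample as a separate mouse. Per the study's methods, both genotypes of an age were handled as 1 batch and controls were littermates, but no source ties replicate numbers to litters. p-values measure the spread between these mice.

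The members, gene lists and tests were chosen with earlier results of these data known. Beyond the members, the text names Tap2, Tapbp, Psmb8, Psmb9, Nlrc5, Irf1 and H2-Ea-ps, up to 10 genes per pathway list with an adjusted p under the cutoff at either age, the 5 genes most like the members and neighbours among the 5 smallest adjusted p. Other genes, such as Canx, Erap1, the class I receptors and the cell type markers, were named outside this rule. No alternatives were run for them. Positions and exon lengths are from GENCODE vM21 (GRCm38), and promoters from RefSeq (GRCm38.p6), matched by symbol for 10 of 10 members. Figures were drawn with Python 3.11.15 and matplotlib 3.10.9.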

Additional observations from a re-analysis of the deposited data

Results flagged for a closer look

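In wild-type mice at 10 months, replicate 2 stood apart from the other 4 mice by Dixon's criterion in H2-K1 (18253 normalized counts), H2-Q4 (6084) and Tap1 (2256). These were 3 of 28 groups of values examined for the 7 tested members, where chance flags about 1 in 20. The 3 flags are the same mouse in genes that varied together (r of 0.841 to 0.946), so they are not independent.

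By the interaction test, the genotype effect differed between the ages for none of the members. Of the pathway genes called at 7 or 10 months, 7 differed. Over the whole lists, 2 peptide loading genes, 2 transcription factors and 5 interferon-stimulated genes were called lower, beside 2.73% of all genes. The 10-month minus 7-month value on the log2 scale was -0.61 for Calr, -0.58 for Pdia3, -0.48 for Creb1, -0.56 for Nfya, -1.26 for Isg15, -1.0 for Ifit3 and -1.38 for Cxcl10. The call of Ifit3 held in 11 of 27 alternatives, that of Creb1 in 17, those of Cxcl10 and Isg15 in 26, and those of Calr, Pdia3 and Nfya in all 27.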

How the results depend on the processing

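Of 784 values of members under the alternatives, 754 kept their direction and 737 also their side of the cutoff. The number of genes called moved by over 1.5 times with DESeq2, to 1163 from 684 at 7 months, 1691 from 1045 at 10 months and 300 from 132 for age in transgenic mice, and in the 7-month mice with higher neutrophil sums, to 330 at 7 months and 439 from 926 for the difference between ages, where fewer mice were fitted. Leaving out 1 mouse gave 282 (without wild-type replicate 1) to 858 calls at 7 months, with a change past 1.5 times also without wild-type replicates 2 (444) and 3 (371). It gave 497 (without wild-type replicate 2) to 1235 at 10 months, and past 1.5 times also without transgenic replicates 1 (582), 3 (559) and 5 (574) and wild-type replicates 1 (579), 3 (671) and 5 (602), 623 to 1089 for the difference between ages, 973 to 1559 for age in wild-type mice and 27 (without 10-month replicate 4) to 166 for age in transgenic mice, there past 1.5 times also without 7-month replicates 2 (68), 3 (69) and 6 (83) and 10-month replicates 1 (59), 2 (59) and 3 (40). Without 10-month wild-type replicate 4, H2-T23 passed at 10 months (adjusted p = 0.0299 by limma), and for the difference between ages it passed without 7-month transgenic replicate 4 (0.0355) or that wild-type mouse (0.0498), as did H2-M3 without 7-month transgenic replicate 4 (0.0458). H2-M3 passed for age in wild-type mice without 7-month transgenic replicate 1 (0.0332). The causes were not tested.

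No reversed value was called. At 7 months B2m was 0.0081 with edgeR and 0.00072 with DESeq2. In the mice with higher neutrophil sums H2-K1 was at -0.049, H2-D1 -0.23, H2-Q4 -0.15, H2-T23 -0.036, Tap1 -0.18, Tapbp -0.072, Nlrc5 -0.079, Irf1 -0.18, H2-Bl -0.014 and Tapbpl -0.045. Leaving out 1 mouse, the 7-month values ranged from -0.054 to 0.16 for H2-D1, -0.062 to 0.058 for B2m, -0.047 to 0.13 for Tap1, -0.0016 to 0.15 for Tap2, -0.031 to 0.11 for Tapbp, -0.085 to 0.075 for Irf1, -0.013 to 0.26 for H2-Bl and -0.032 to 0.12 for Tapbpl. For age in transgenic mice they ranged from -0.053 to 0.13 for H2-D1, -0.12 to 0.013 for H2-T23, -0.10 to 0.0080 for B2m and -0.089 to 0.084 for Tap1.

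The replicate numbers were not shown to pair mice: deviations of equal numbers from their group means correlated between -0.134 and 0.0995, and the labels give no shared origin. With the replicate block 414 genes were called at 7 months, 916 at 10 months, 642 for the difference between ages and 77 for age in transgenic mice. H2-K1 (adjusted p = 0.00828) and H2-D1 (0.0121) passed at 10 months under this block, H2-D1 (0.0426) but not H2-T23 (0.0521) for age in wild-type mice, all by limma, and Tap1 for age in transgenic mice was 7.3e-05. Depth did not limit the 7 tested members, which had at least 906 reads in every mouse. For H2-Q6 and H2-Q7 a count of 0 allows up to 3 reads per mouse, for counting error only.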
